A study of Homo sapiens with 6 samples.

Results

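Interferons are secreted proteins through which cells announce infection or foreign nucleic acid. Type I interferons, such as interferon beta, bind a receptor made of IFNAR1 and IFNAR2, which acts through the kinases JAK1 and TYK2 on STAT factors that join IRF9 at interferon-stimulated response elements, while interferon gamma binds IFNGR1 and IFNGR2 and acts at gamma-activated sites. The genes switched on in this way block viruses, break down foreign RNA and feed back on the response, and the interferon regulatory factors (IRFs) act both above and below the interferons.

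The genes described here are 47 listed genes of this system, matched by symbol: interferon beta and 4 receptor chains, 7 IRFs, 8 sensors of nucleic acid, 14 antiviral effectors, 4 genes of the ISG15 system and 9 other induced genes. Of the 47, 46 had a probe set (the probes that read 1 transcript) of their own and stood among the 18417 genes tested, while GBP1 was read only by a probe set shared with GBP3 and a pseudogene. They were measured in the human cell line MDA-MB-231, derived from a breast cancer without hormone receptors or HER2 amplification (triple negative), in 3 untreated samples and in 3 samples treated with the multi-kinase inhibitor EC-70124 at 500 nM for 24 h, each hybridized to an Affymetrix Human Gene ST array. The samples were called independent in the study's methods, all came from the same line grown in the same medium, and whether the untreated samples received the solvent was not given in the sources used here. Values are model-based expression intensities on a linear scale, comparable between arrays for 1 gene but not between genes. Differences are EC-70124 minus untreated on the log2 scale, ± SE from limma with n = 3 per group, with p-values adjusted over all 18417 genes by the Benjamini-Hochberg method and a threshold of 0.05. An exact permutation test of 3 against 3 arrays cannot give a p under 0.1 and was not relied on. Ratios of gene pairs are given as descriptions with no test, since the pairs were chosen after their values were seen.

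The interferon genes did not move one way. Of the 46 tested, 10 rose, 10 fell and 26 did not pass. Among all genes 34.5% passed, 19.7% as rises and 14.8% as falls, and among the members 43.5% passed. By role the share ran from 23.1% of 13 antiviral effectors to 75% of 4 genes of the ISG15 system. These groups hold few genes and their shares were not tested. In such bulk samples, less RNA per cell and fewer cells that express a gene cannot be told apart. The groups did not overlap for 11 members that lay higher and 13 that lay lower after treatment, where 47.6% of all genes had groups that did not overlap. The median difference was -0.02 over the members and -0.0045 over all genes, and the median size of the difference regardless of sign was 0.18 and 0.14. A change of at least 1.5-fold that passed was measured for 4 members that rose (IRF1, IFI35, IFIT5 and HERC6) and 6 that fell (IFIT1, OASL, OAS1, DDX60, IRF2 and HERC5), while 9.66% of all genes passed with such a fold. Rises made up 57.2% of all calls on the values as deposited and 43.3% after centring each array on its median, which left the members at 10 rises and 13 falls.

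**Figure D1:**
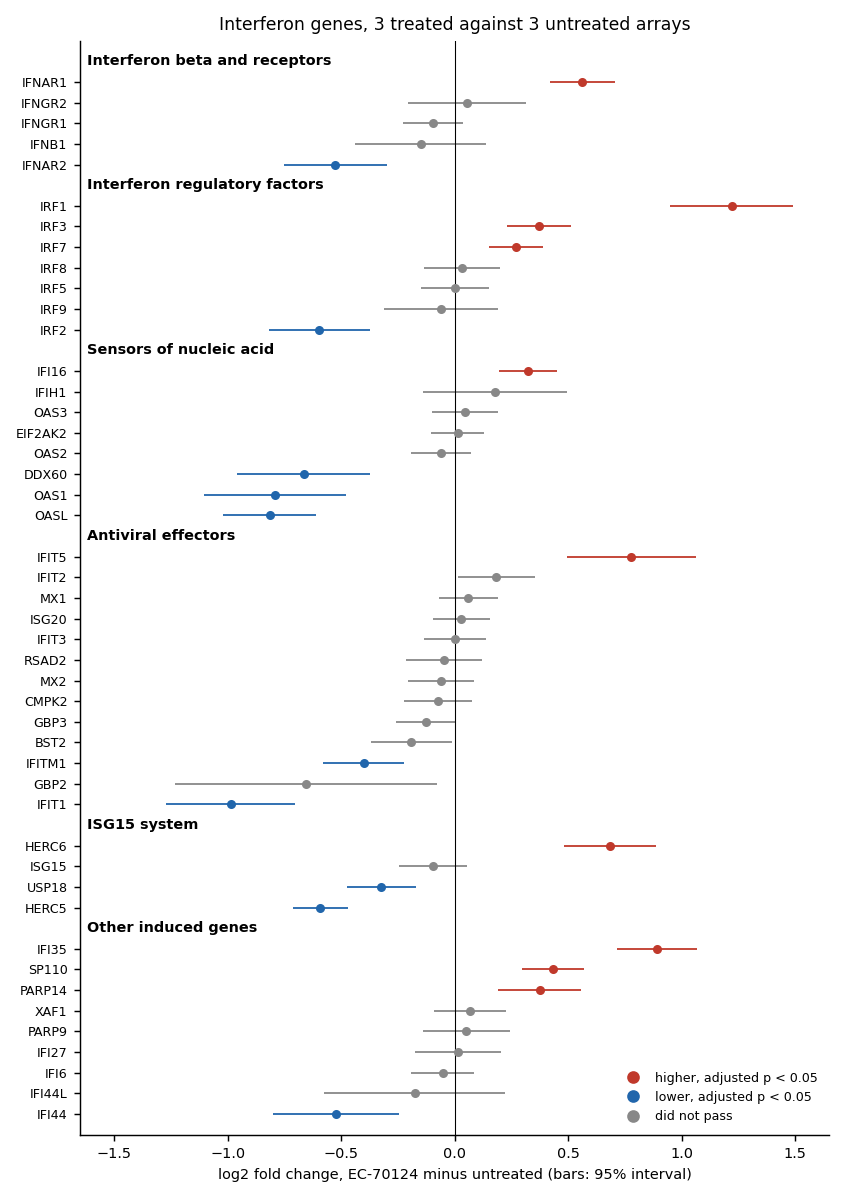
Difference between EC-70124 and untreated arrays on the log2 scale for each of the 46 members, grouped by role, with the 95% interval of the fit as bars and 3 arrays per group. Red points rose, blue points fell and grey points did not pass at an adjusted p of 0.05, and every role holds points of all 3 colours, from IRF1 at 1.22 to IFIT1 at -0.99.

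The arrays of one group resembled each other closely, with Pearson's r over the probe sets of an array (not independent of each other) of 0.990 to 0.993 within a group and 0.979 to 0.984 between groups, and the median intensity per array ran from 437 to 460.1. The third EC-70124 array stood apart in these genes: it held the lowest treated value for 30 of 46 members (42.1% of all genes). It lay more than 0.3 log2 units below the mean of the other treated arrays for 15 members and above it by that much for 0, against 5.95% and 3.99% of all genes, with the limit of 0.3 chosen after the values were seen. Its median distance from the other treated arrays was -0.10 over the members and -0.01 over all genes. The weight that limma estimated for it was 0.302, with 0.716 to 2.16 for the other arrays. All 20 members that passed had the same sign in each of the 3 treated arrays, which follows from their groups not overlapping. Without the third EC-70124 array 12 members rose and 11 fell. Over all genes 3888 rose and 2947 fell without it, and 3631 and 2722 with it. The part of this array in the result was not tested further. Vimentin (VIM), CD44 and EGFR, which mark this line, had mean untreated intensities of 13830.0, 10100.0 and 7034. ESR1, PGR, ERBB2, CDH1 and EPCAM, listed as low in it, had 225.3, 166.1, 1486, 155.8 and 381. Since intensities are not comparable between genes, these values describe the samples and do not test which line they are. Of 15 markers of leukocytes and endothelium, 0 rose and 1 fell, CD68, which many cell types express in lysosomes (-0.33 ± 0.088, adjusted p = 0.0186).

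**Figure D2:**
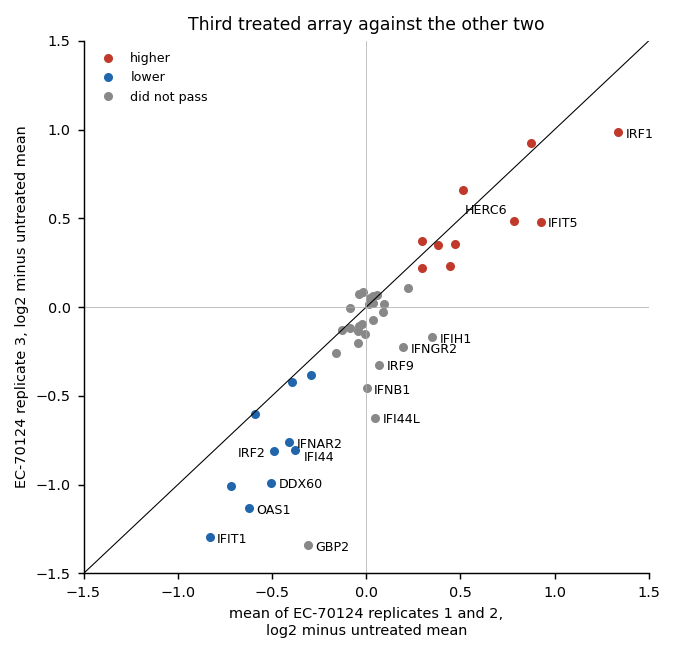
Each point is 1 of the 46 members, with the mean of EC-70124 replicates 1 and 2 on the horizontal axis and EC-70124 replicate 3 on the vertical axis, both as log2 intensity minus the mean of the untreated arrays. The line marks equal values, and the 15 named genes lie more than 0.3 below it, with GBP2 the farthest at -1.34 in replicate 3.

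Interferon factors bind short sequence patterns near the start of many of these genes, and 5 promoters are shown here so that the genes with the largest changes can be read beside their regulatory sequence. Both patterns were searched in windows from 250 bases before to 50 bases after the RefSeq start (build GRCh38.p14), on both strands: the core of the interferon-stimulated response element (ISRE), GAAANNGAAA, and the gamma-activated site (GAS), TTCNNNGAA, which reads the same on both strands. The patterns share letters, and matches to both overlapped in the windows of IFI27, BST2, MX1 and IFITM1. The ISRE core lay in 22 of 37 members with a window (59.5%) and in 4.38% of all 27305 genes with one, and GAS in 13 of 37 (35.1%) and in 9.38%. Among the members with a window, the ISRE core was found in 2 of 8 that rose, 5 of 6 that fell and 14 of 22 that did not pass, and in GBP1, which was not tested. GAS was found in 4 of 8 that rose, 3 of 6 that fell and 6 of 22 that did not pass. These counts describe letters in a window, with no test, and draw on no binding data. The ISRE pattern fixes the spacing between its GAAA parts, so copies with another spacing were not counted. The stretches shown for IFI35 (GAAatgaaa) and OAS1 (gaaacgaaa) hold such letters. Those of OAS1 are left in lower case, and those of IFI35 begin in the GAS match, which is why their first letters are capitals. IFNAR2, IRF2, IRF3, IRF7, OAS2, OASL, IFIT2, MX2, GBP2 and USP18 have no window in the table used.

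The stretches end 1 base before the annotated start, with matches in capitals. They belong to the 4 members with a match and the largest changes past the threshold, and to IFIT5, added after its values were seen because it rose beside IFIT1. IRF1 lies on the minus strand of chromosome 5 (chr5:132490774-132490923) with GAS at positions -124 to -116, where -1 is the base before the start. IFIT1 (chr10:89392473-89392622, plus strand) holds the ISRE core at -116 to -107 and at -103 to -94, both read on the opposite strand. IFI35 (chr17:43006634-43006783, plus strand) holds GAS at -22 to -14. OAS1 (chr12:112906712-112906961, plus strand) holds GAS at -168 to -160 and is shown over 250 bases for that reason. IFIT5 (chr10:89414418-89414567, plus strand) holds the ISRE core at -45 to -36 and -19 to -10, and a further match from -4 to 6 runs over the start, beyond the stretch shown.
IRF1: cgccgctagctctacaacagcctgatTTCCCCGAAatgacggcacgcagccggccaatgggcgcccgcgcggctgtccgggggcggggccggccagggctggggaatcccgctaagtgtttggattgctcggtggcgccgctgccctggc
IFIT1: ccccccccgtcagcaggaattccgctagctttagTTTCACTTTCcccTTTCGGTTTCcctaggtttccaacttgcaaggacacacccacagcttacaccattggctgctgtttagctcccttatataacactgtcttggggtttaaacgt
IFI35: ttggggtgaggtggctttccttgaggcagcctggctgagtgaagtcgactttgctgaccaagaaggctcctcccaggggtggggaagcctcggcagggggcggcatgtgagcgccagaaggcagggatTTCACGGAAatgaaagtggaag
OAS1: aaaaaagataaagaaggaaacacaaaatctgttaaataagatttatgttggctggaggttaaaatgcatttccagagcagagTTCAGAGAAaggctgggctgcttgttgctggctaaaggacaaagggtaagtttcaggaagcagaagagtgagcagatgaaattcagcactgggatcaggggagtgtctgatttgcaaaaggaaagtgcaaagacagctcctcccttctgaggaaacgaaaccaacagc
IFIT5: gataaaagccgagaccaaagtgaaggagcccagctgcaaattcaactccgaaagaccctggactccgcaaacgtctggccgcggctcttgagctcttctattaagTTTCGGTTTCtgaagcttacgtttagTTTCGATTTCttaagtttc
IFIT1, which fell, and IFIT5, which rose, thus both carry 2 matches or more to the ISRE core within 150 bases of the start.

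Interferon beta and the receptors were read first. IFNB1, the gene of interferon beta, read 107, 97.1 and 109 untreated and 104, 105 and 75.9 treated, and the groups overlapped (-0.15 ± 0.12, adjusted p = 0.411, limma). With a mean untreated intensity of 104.3 this gene was dim and may not be expressed. IFNAR1, the chain of the type I receptor that carries TYK2, read 1026, 1027 and 1027 untreated and 1426, 1506 and 1619 treated. Every treated array lay above every untreated array, and the 3 untreated values were almost the same (1.48-fold higher, log2 difference 0.56 ± 0.062, adjusted p = 0.000239). IFNAR2, the chain of the same receptor that carries JAK1, moved the other way, from 1104, 1113 and 1057 to 825, 819.7 and 644. Its treated arrays all lay below the untreated ones, the third by the widest margin (1.44-fold lower, -0.53 ± 0.10, adjusted p = 0.00373). The log2 ratio of IFNAR1 to IFNAR2 thereby went up by 1.09, and it read 0.79, 0.88 and 1.33 in the treated arrays. The receptor chains for interferon gamma did not pass: IFNGR1, which binds the ligand, differed by -0.10 ± 0.058 (95% interval -0.23 to 0.04), and IFNGR2, which signals with it, by 0.06 ± 0.11 (-0.20 to 0.31). Without EC-70124 replicate 3, IFNGR2 passed as a rise of 0.20.

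Among the IRFs, 3 rose, 1 fell and 3 did not pass. IRF1, an activator that is itself induced by interferon gamma, read 650.1, 761 and 619 untreated and 1756, 1649 and 1334 treated. The lowest treated value was well above the highest untreated one, and this was the largest change of all the members (2.33-fold higher, 1.22 ± 0.12, adjusted p = 0.000121, limma). IRF2, which binds the same elements as IRF1 and opposes it at many genes, gave 3779, 4112 and 3798 untreated and 2831, 2722 and 2218 treated, with no overlap (1.51-fold lower, -0.60 ± 0.10, adjusted p = 0.00172). The log2 ratio of IRF1 to IRF2 was -2.54, -2.44 and -2.62 without drug and -0.69, -0.72 and -0.73 with it, a change of 1.82. Although replicate 3 was the lowest treated array for each gene, the ratio was nearly equal in the 3 treated arrays.

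IRF3, which waits in the cytoplasm and drives IFNB1 once sensors have signalled, read 2180.0, 2429.6 and 2291 untreated and 3069, 2913 and 2928 treated. All 3 treated arrays were higher (1.29-fold, 0.37 ± 0.061, adjusted p = 0.00198, limma). IRF7, its inducible partner in interferon production, read 869, 869.9 and 872 untreated and 1062, 1073 and 1015 treated, again with all treated arrays higher (1.21-fold, 0.27 ± 0.052, adjusted p = 0.00436). IRF9, the DNA-binding part of the factor formed with STAT proteins after type I interferon, read 2311, 2323 and 2204 untreated and 2297, 2489 and 1821 treated. The second treated array was the highest of all and the third the lowest, so that the groups overlapped (-0.06 ± 0.11, adjusted p = 0.716). IRF5, which acts below Toll-like receptors (0.00 ± 0.065), and IRF8, a factor of myeloid cells (0.03 ± 0.073), did not pass either. IRF8 was dim, with a mean untreated intensity of 163.6, and may not be expressed.

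**Figure D3:**
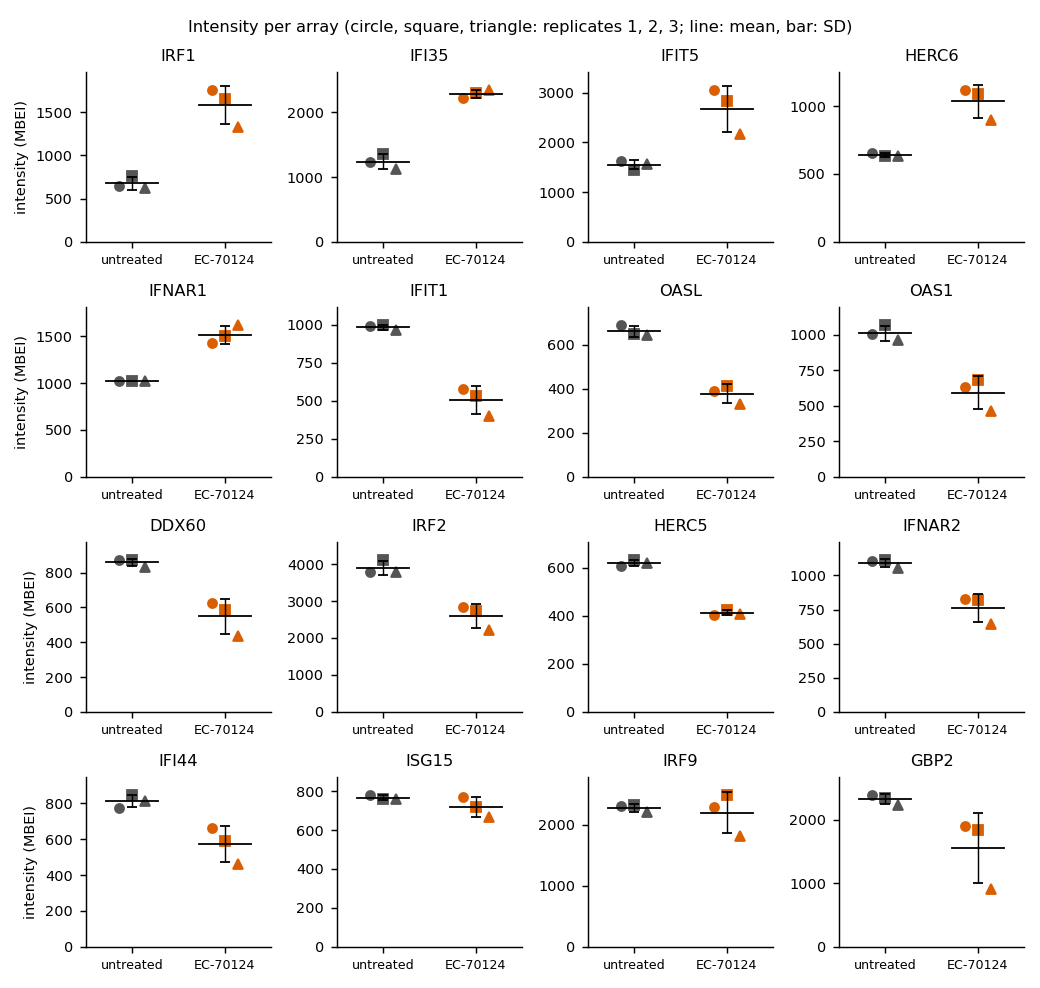
Intensity per array on a linear axis from 0 for the 13 members that passed with a log2 difference of 0.5 or more in size and for ISG15, IRF9 and GBP2, with replicates 1, 2 and 3 as circle, square and triangle, lines for the mean and bars for the SD of 3 arrays. In the first 13 panels the groups do not overlap, while the third treated array (triangle) lies below the other treated arrays in panels such as IFIT1, DDX60 and GBP2.

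Of the 8 sensors, 1 rose, 3 fell and 4 did not pass, and the oligoadenylate synthetases divided. OAS1, which makes the short oligoadenylates that switch on the nuclease RNase L, read 1000.4, 1066 and 961 untreated and 633, 678 and 460.0 treated. All 3 treated arrays were lower, the third most (1.73-fold lower, -0.79 ± 0.14, adjusted p = 0.00237, limma). OASL, a relative that lacks this activity and assists the RNA sensor RIG-I, read 689, 647 and 645 untreated and 389, 414 and 329 treated, without overlap (1.76-fold lower, -0.81 ± 0.088, adjusted p = 0.000225). OAS2 and OAS3, which lie next to OAS1 on chromosome 12 and have the same activity, differed by -0.06 ± 0.058 (95% interval -0.19 to 0.07) and 0.05 ± 0.063 (-0.10 to 0.19) and did not pass. DDX60, a helicase that assists RIG-I, read 871, 872 and 835 untreated and 628, 585 and 433 treated, with every treated array below the untreated arrays (1.58-fold lower, -0.66 ± 0.13, adjusted p = 0.00422). IFI16, a sensor of DNA in nucleus and cytoplasm, was the single rise in this group (1.25-fold, 0.32 ± 0.055, adjusted p = 0.00227). IFIH1 (MDA5), a sensor of long double-stranded RNA, differed by 0.18 ± 0.14 (adjusted p = 0.379) and passed as a rise of 0.35 without EC-70124 replicate 3. EIF2AK2 (PKR), the kinase that stops translation on double-stranded RNA, differed by 0.01 ± 0.05 and did not pass.

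Among the antiviral effectors 1 rose, 2 fell and 10 did not pass. The IFIT genes, neighbours on chromosome 10 whose proteins bind foreign RNA ends, gave both the rise and the larger fall. IFIT1, which recognises caps that lack the methyl mark of the host, read 989, 998 and 968 untreated and 578, 530.0 and 401 treated. The 3 treated arrays lay far below the untreated ones, and this was the largest fall of all the members (1.98-fold lower, -0.99 ± 0.12, adjusted p = 0.000468, limma). IFIT5, which binds RNA with a 5' phosphate, read 1629.8, 1455 and 1564 untreated and 3053, 2829 and 2161 treated, with every treated array above (1.71-fold higher, 0.78 ± 0.12, adjusted p = 0.00158). The log2 ratio of IFIT5 to IFIT1 was 0.72, 0.54 and 0.69 without drug and 2.40, 2.42 and 2.43 with it, a change of 1.76. That ratio was nearly equal in the 3 treated arrays although each gene was lowest in replicate 3. Not all pairs were so steady: the SD over the treated arrays was 0.015 here, 0.024 for IRF1 to IRF2 and 0.29 for IFNAR1 to IFNAR2. IFIT2 and IFIT3, partners of IFIT1 in a complex, differed by 0.18 ± 0.073 (adjusted p = 0.0917) and 0.00 ± 0.059 and did not pass. IFITM1, which blocks viral entry at membranes, fell (1.32-fold lower, -0.40 ± 0.077, adjusted p = 0.00419).

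The best known effectors were among those that did not pass. The dynamin-like GTPases MX1 (0.06 ± 0.057) and MX2 (-0.06 ± 0.062), RSAD2 (viperin, -0.05 ± 0.072) and its neighbour CMPK2 (-0.07 ± 0.065), the exonuclease ISG20 (0.03 ± 0.054) and the tether BST2 (-0.19 ± 0.077) all stayed on that side of the threshold in limma. Their intervals on the log2 scale together ran from -0.37 to 0.19. MX2, RSAD2 and BST2 were dim, with mean untreated intensities of 202, 186.9 and 186.5. Without a measure of background, whether these genes were expressed at all cannot be told. The guanylate-binding protein GBP2, a GTPase that attacks pathogen vacuoles, read 2384, 2339 and 2236 untreated and 1903, 1835 and 914 treated. All treated arrays were lower, replicate 3 far more so than the others (-0.66 ± 0.25, adjusted p = 0.0792). Without EC-70124 replicate 3 its difference was -0.31 and passed (adjusted p = 0.00439, limma). A dimmer probe set of GBP2 differed by 0.12 ± 0.22, with values of 936, 992 and 889 untreated and 1191, 1255 and 703 treated, so that the 2 probe sets disagreed in direction in replicates 1 and 2. GBP3, a relative, differed by -0.13 ± 0.056 and did not pass. The probe set that GBP1 shares with GBP3 and GBP1P1 differed by -0.22 ± 0.078 and did not pass over all probe sets (adjusted p = 0.0963).

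ISG15 is a ubiquitin-like protein that is joined to other proteins by the E1 enzyme UBA7, the E2 enzyme UBE2L6 and the E3 ligase HERC5, and removed by USP18, which also restrains the type I receptor at IFNAR2. ISG15 itself read 780.0, 762 and 759 untreated and 769, 717 and 668 treated. The first treated array lay among the untreated values and the other treated arrays below them (-0.10 ± 0.065, adjusted p = 0.304, limma). HERC5 read 609, 633 and 622 untreated and 403, 424 and 409.9 treated, with close replicates and no overlap (1.51-fold lower, -0.59 ± 0.053, adjusted p = 8.37e-05). HERC6, its neighbour on chromosome 4 and a relative of the same kind of ligase, read 657, 634 and 631 untreated and 1117, 1089.5 and 896 treated, with all treated arrays above (1.61-fold higher, 0.69 ± 0.088, adjusted p = 0.000519). The log2 ratio of HERC6 to HERC5 went up by 1.28, and it read 1.47, 1.36 and 1.13 in the treated arrays. USP18 fell (1.25-fold lower, -0.32 ± 0.066, adjusted p = 0.00581), and a probe set it shares with USP41P differed by -0.43 ± 0.084 (adjusted p over all probe sets = 0.0131). The enzymes ahead of HERC5, which belong to the wider pathway, fell as well: UBA7 read 1446, 1688 and 1484 untreated and 811, 833 and 726 treated (-0.96 ± 0.082, adjusted p = 6.79e-05), and UBE2L6 read 2085, 2025 and 2007 untreated and 1129, 1197 and 912 treated (-0.93 ± 0.10, adjusted p = 0.000203). Thus the mRNAs of UBA7, UBE2L6, HERC5 and USP18 were lower in all treated arrays and that of HERC6 was higher, without a change of ISG15 that passed.

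**Figure D4:**
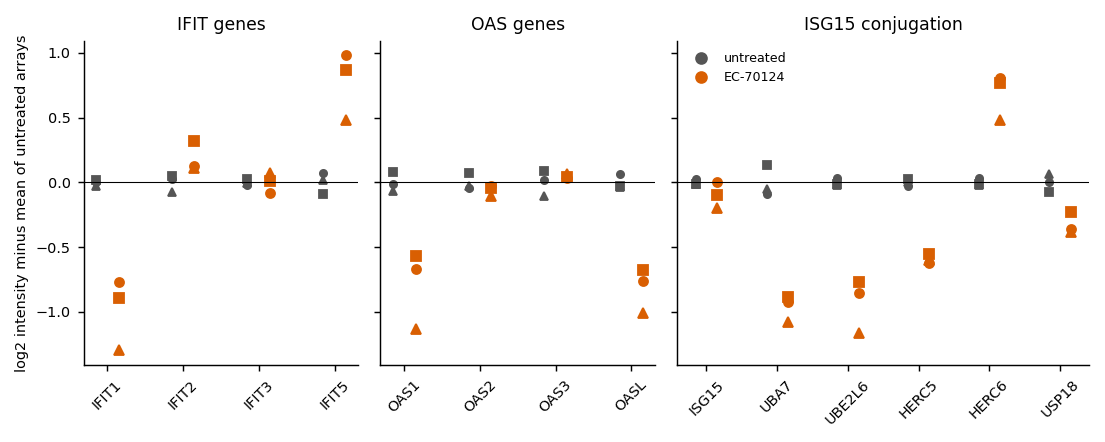
Log2 intensity minus the mean of the untreated arrays for the IFIT genes, the OAS genes and the genes of ISG15 conjugation, with untreated arrays in grey, EC-70124 arrays in orange, and replicates 1, 2 and 3 as circle, square and triangle. IFIT5 and HERC6 lie above 0 and IFIT1, OAS1, OASL, UBA7, UBE2L6, HERC5 and USP18 below it in all 3 treated arrays, while IFIT3, OAS2 and OAS3 stay close to 0.

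Of the 9 other induced genes, 3 rose, 1 fell and 5 did not pass. IFI35, a leucine zipper protein that pairs with NMI, read 1229.6, 1358 and 1126 untreated and 2217, 2302 and 2344 treated. Each treated array lay above each untreated array, here with replicate 3 the highest (1.85-fold higher, 0.89 ± 0.076, adjusted p = 6.98e-05, limma). IFI44, an induced protein of less settled function, read 777, 847 and 814 untreated and 662, 588 and 464 treated, with no overlap (1.44-fold lower, -0.52 ± 0.12, adjusted p = 0.0102). Its relative IFI44L differed by -0.18 ± 0.17 and did not pass, with EC-70124 replicate 3 at -0.62 from the untreated mean. SP110, a nuclear body protein, rose (1.35-fold, 0.43 ± 0.059, adjusted p = 0.000744), and so did PARP14, an ADP-ribosyltransferase (1.3-fold, 0.37 ± 0.08, adjusted p = 0.00702). PARP9, a partner of PARP14, differed by 0.05 ± 0.083 and did not pass. IFI6 (-0.05 ± 0.06) and IFI27 (0.01 ± 0.082), both proteins of mitochondrial or internal membranes, and XAF1 (0.07 ± 0.069), an antagonist of the inhibitor of apoptosis XIAP, did not pass. XAF1 was dim, with a mean untreated intensity of 200.6, and may not be expressed.

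The wider pathway was read from 134 further genes in 5 lists, of which 115 had a probe set of their own. Of these, 21 rose and 22 fell (37.4%), beside 34.5% of all genes, and their median difference was -0.03. The kinases JAK1 (-0.08 ± 0.051), JAK2 (0.00 ± 0.07) and TYK2 (0.09 ± 0.058) did not pass in limma. In the list of JAK kinases and their restraint, 1 of 13 rose, the phosphatase PTPN2, which removes phosphate from JAK and STAT proteins (0.65 ± 0.07, adjusted p = 0.000206), and 1 fell, SOCS3, an inhibitor of JAK kinases (-0.80 ± 0.10, adjusted p = 0.000436). Of 17 other interferons and receptors 0 rose and 2 fell in limma, IFNL3 (-0.42 ± 0.08, adjusted p = 0.00431) and IFNA8 (-0.22 ± 0.074, adjusted p = 0.0479). IFNA8 was dim, with mean intensities of 137.6 untreated and 117.8 treated, and may not be expressed. Of the 22 listed, 5 had no probe set of their own, all of them interferon alpha genes of closely similar sequence.

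Nucleic acid sensing was the list with the highest median, 0.18. Of its 22 genes 9 were higher (40.9%, beside 19.7% of all genes) and 1 lower (4.55%, beside 14.8% of all genes), with no test of the list. IKBKE, a kinase that phosphorylates IRF3 and IRF7, read 924, 968 and 902 untreated and 1907, 1878 and 1779.8 treated (0.99 ± 0.058, adjusted p = 1.34e-05, limma). All treated values lay above all untreated ones. TLR3, the endosomal receptor for double-stranded RNA (0.58 ± 0.058, adjusted p = 0.000152), TRAF6, the ligase below Toll-like receptors (0.51 ± 0.071, adjusted p = 0.00083), and TRIM25, the ligase that activates RIG-I (0.45 ± 0.054, adjusted p = 0.000385), rose too. STING1, the adaptor for cyclic dinucleotides, rose by less (0.22 ± 0.059, adjusted p = 0.0179), and RIGI, the RNA sensor itself, differed by 0.03 ± 0.10 and did not pass. Of 48 other interferon-induced genes 10 rose and 12 fell, with SLFN5 (1.30 ± 0.11, adjusted p = 5.97e-05) and SLFN12 (0.99 ± 0.087, adjusted p = 8.16e-05) of the Schlafen family as the largest rises and UBA7 and UBE2L6, given above, as the largest falls.

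**Figure D5:**
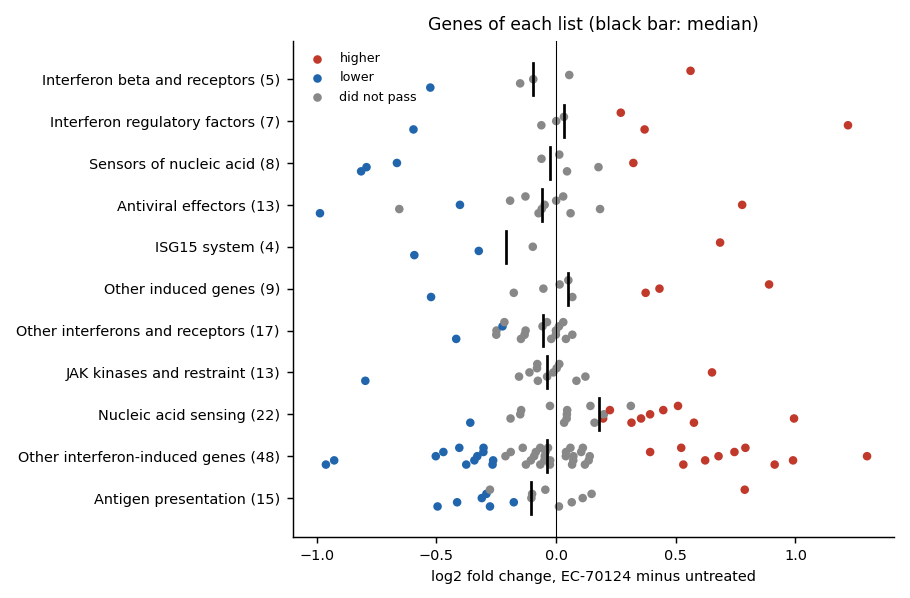
Log2 difference between EC-70124 and untreated arrays for each gene of the 6 groups of members and the 5 further pathway lists, with the number of genes tested in brackets, a black bar for the median, and colours for genes that rose (red), fell (blue) or did not pass (grey). Medians lie near 0 in most lists, highest for nucleic acid sensing at 0.18 and lowest for the ISG15 system at -0.21.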

How the data were processed

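Deposited values were intensities on a linear scale: the authors normalized all arrays in dChip by pair-wise rank invariant probes and computed 1 model-based index per probe set, with the version and background correction not given in the sources used here. Of 33252 probe sets, 19460 carry 1 gene symbol in the platform annotation, 1754 several and 12038 none. Each of 18417 genes was represented by its single-symbol probe set with the highest mean (769 genes have more than 1). Intensities were floored at 1 and taken as log2, and lmFit and eBayes of limma 3.58.1 (R 4.3.3) compared 3 EC-70124 with 3 untreated arrays, 2-sided. Precision is limited by the number of arrays, and no measure of background was part of the table, so a dim gene may not be expressed at all. Scripts were tested on simulated data. The members and lists were chosen with earlier results of these data known. Values per array are given for members that passed with a log2 difference of at least 0.5 in size and for IFNB1, IFNAR1, IRF1, IRF3, IRF7, IRF9 and ISG15, up to 4 genes that passed are named from each further list, along with JAK1, JAK2, TYK2, RIGI and STING1, and GBP2 is shown array by array after its values were seen, as are UBA7, UBE2L6 and IKBKE. Promoter sequences came from RefSeq (GRCh38.p14). Of 17 alternatives, array weights were added after seeing the data.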

Additional observations from a re-analysis of the deposited data

How the results depend on the processing

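All 20 members that passed kept direction and call under the 15 alternatives that did not tighten the threshold (other scalings, an offset of 50, leaving out the 30% dimmest genes or any array, the median over probe sets, an intensity trend, array weights and the replicate number as a block). At a minimum of 1.5-fold, 4 members rose and 6 fell (all genes 1184 and 596, pathway lists 10 and 3), and at an adjusted p of 0.01 the falls over all genes numbered 1760. Leaving out 1 array at a time gave 10 to 12 rises and 10 to 11 falls among the members (all genes 2991 to 3888 and 2133 to 2947). The 6 members that passed only under an alternative were BST2, GBP2, GBP3, IFIH1, IFIT2 and IFNGR2. The replicate number as a block gave 10 rises and 11 falls among the members (all genes 3521 and 2662). The replicate numbers did not pair the samples (correlations of deviations 0.127, -0.023 and 0.136), with 3 of 6 arrays correlating best with their own number. Centring on the median shifted all genes to a median of -0.07 and gave 3015 rises and 3942 falls, and quantile normalization 3284 and 3367; the causes were not tested. GBP2 passed under 5 alternatives.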

Other observations

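Genes of antigen presentation, many of them induced by interferon gamma, were mixed, with a median of -0.10. Of 15 tested in limma, 1 rose (6.67%, beside 19.7% of all genes) and 6 fell (40%, beside 14.8% of all genes), with no test of the list. ERAP2, which trims peptides in the endoplasmic reticulum, rose (0.79 ± 0.059, adjusted p = 3.85e-05), while ERAP1, its partner, fell (-0.41 ± 0.057, adjusted p = 0.000753). PSMB9, a subunit of the immunoproteasome, fell (-0.50 ± 0.14, adjusted p = 0.0226), with treated values of 1186, 1294 and 863, the third again the lowest, and NLRC5, an activator of class I genes, fell (-0.31 ± 0.078, adjusted p = 0.0153). Over all probe sets rather than genes, the adjusted p of PSMB9 was 0.0623. Of 10 genes that mark breast and epithelial cells, 3 rose, with the keratin gene KRT18 the largest (0.77 ± 0.058, adjusted p = 3.77e-05), and 2 fell, EGFR (-0.39 ± 0.052, adjusted p = 0.000632) and CD44 (-0.29 ± 0.057, adjusted p = 0.0049). Among genes named after their values were seen, the chemokine CXCL11 rose (0.91 ± 0.086, adjusted p = 0.000114) from a low untreated mean of 77.5. CXCL10 and CXCL9, which bind the same receptor, differed by -0.02 ± 0.086 and -0.11 ± 0.069 and did not pass. Their untreated means of 116.6 and 107.4 were low too, so whether CXCL9, CXCL10 and CXCL11 were expressed at all cannot be told. CD274, which encodes PD-L1, fell (-0.33 ± 0.071, adjusted p = 0.00765).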
